A study of Mus musculus with 20 samples.

Results

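The genes described here are the 8 steroid and estrogen-related receptor genes Esr1, Esr2, Pgr, Nr3c1, Nr3c2, Esrra, Esrrb and Esrrg, taken by name and Ensembl identifier from a table of 37620 genes. They were measured by RNA-seq in dorsal root ganglion (DRG) neurons of mice homozygous for Trpv1tm2Bbm, a knock-in allele that places a nuclear beta-galactosidase reporter under the Trpv1 gene. All groups carried this allele, and none was a wild type. Cells were released from the ganglia by enzyme digestion, and those brightest for the reporter's fluorescent product were sorted, so each library is a Trpv1-enriched population chosen by reporter brightness. Each donor gave 1 lumbar library (ganglia L4-5) and 1 sacral library (L6-S1). The 4 groups were male lumbar, male sacral, female lumbar and female sacral, with 5 libraries each, from 5 male and 5 female donors aged 6 to 8 weeks. The label of each donor carries 2 animal numbers, so a donor may be a pool of animals. The comparison of levels asks whether sacral ganglia, which supply the pelvic organs, differ from lumbar ganglia in these receptors. The comparison of sexes asks whether either level differs between males and females.

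Steroid receptors are transcription factors of the nuclear receptor family. A steroid enters the cell and binds its receptor, which is held ready by the heat shock protein Hsp90 and its partner proteins, and the receptor then binds short DNA elements near its target genes. Esr1 and Esr2 encode the estrogen receptors alpha and beta, Pgr the progesterone receptor, Nr3c1 the glucocorticoid receptor and Nr3c2 the mineralocorticoid receptor. Esrra, Esrrb and Esrrg encode the estrogen-related receptors, which do not bind estrogen and are known for driving genes of energy metabolism. Pgr is a classical target gene of estrogen receptor alpha. In sensory neurons, estrogen receptors are known for effects of estrogen on excitability and pelvic pain.

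In mouse build NCBIM37 (mm9), Esr1 (ENSMUSG00000019768) lies at chr10:5340927-5734948 on the minus strand and Pgr (ENSMUSG00000031870) at chr9:8900419-8965425 on the plus strand. Esr2 lies at chr12:77221406-77278246 and Esrrb at chr12:87702067-87862578, on opposite strands of the same chromosome. Esrra lies at chr19:6985467-6996303 and Esrrg at chr1:189432670-190038764. All 8 are protein-coding. Exons of Nr3c2 overlap the opposite-strand gene Gm10649, and exons of Esrra overlap the opposite-strand gene Trmt112. Whether the counting used strand is not given in the sources used here, so part of the values of these 2 genes may belong to the overlapping gene.

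Esr1 and Pgr are the members that were higher in sacral libraries, so the sequence before a start site of each is shown. Both come from RefSeq promoter windows (GRCm38.p6) and were found once each, without a mismatch, in NCBIM37. The Esr1 sequence precedes the start site inside the gene, at chr10:5636387-5636633, and lies in an intron of the longer Esr1 transcripts. The window before the outer Esr1 start lies within an annotated exon and is not printed. The Pgr sequence lies at chr9:8899583-8899832, upstream of the annotated gene. Capitals mark the CCAAT box (CCAAT or its reverse complement) and the GC box (GGGCGG, either strand), 2 elements common in promoters and chosen after the sequences had been read.
Esr1, minus strand: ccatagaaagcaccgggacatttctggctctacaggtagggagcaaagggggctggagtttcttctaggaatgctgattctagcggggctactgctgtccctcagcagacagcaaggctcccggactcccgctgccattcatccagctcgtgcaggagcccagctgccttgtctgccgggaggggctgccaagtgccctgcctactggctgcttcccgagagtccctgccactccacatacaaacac
Pgr, plus strand: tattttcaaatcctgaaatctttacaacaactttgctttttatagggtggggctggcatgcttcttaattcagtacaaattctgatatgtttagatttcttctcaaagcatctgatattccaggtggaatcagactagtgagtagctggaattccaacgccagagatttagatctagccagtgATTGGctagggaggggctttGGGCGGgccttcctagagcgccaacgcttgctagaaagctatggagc

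The base composition differed, at 59.9% G and C in the Esr1 sequence and 43.6% in the Pgr sequence. Of 32817 mouse windows of 250 bases, 33.8% held CCAAT and 32.7% held GGGCGG. Neither printed sequence held, on either strand, the core GGTCA of the estrogen response element or the full palindrome of GGTCA and its reverse complement TGACC around any 3 bases. Neither held the extended core of the estrogen-related receptors (TCAA directly before GGTCA) or the glucocorticoid-type element (GNACA and TGTNC around any 3 bases). GGTCA was found in 35.2% of all windows, the palindrome in 0.0640%, the extended core in 0.387% and the glucocorticoid-type element in 0.387%, and each palindrome or extended core is also a match to GGTCA. Windows were found for 7 of the 8 members, 12 windows in all. The core GGTCA was in the Esr2 window (2 matches), the Nr3c2 window (2 matches) and 1 of 2 Esrrb windows (1 match), and in none of the 4 Esrrg windows or the Esrra window. No estrogen response element was found in any of the 12 windows, which says only that these letters are not there.

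Values are log2 RPKM (reads per kilobase of exon, scaled to the library size), so levels can be compared between genes. For Nr3c2 and Esrra that comparison carries the limit of the overlapping genes given above. Reads on genes numbered 43499216 to 61822780 in the lumbar libraries and 46044602 to 65542378 in the sacral libraries. Of the sorted cells' own markers, Trpv1 was at 3.74 ± 0.41 in lumbar and 4.70 ± 0.35 in sacral libraries (log2 RPKM, SD, n = 10 each). Of the 6 Trpv1 neuron markers, 4 were called higher in sacral libraries, Trpv1, Scn10a and Gfra3 among them, whereas the peptide genes Calca, at 0.16, and Tac1, at -0.10, were not called (limma adjusted p = 0.16 and 0.37). All 7 general neuron markers were higher in sacral libraries. Glial markers were present too. The summed level of 12 satellite glia and Schwann cell genes ranged from 11.1 to 12.0 (log2 RPKM) in lumbar and from 10.4 to 11.1 in sacral libraries, and their mean was higher in the lumbar library of all 10 donors. Markers of macrophages, endothelial cells and fibroblasts averaged 1.06, 0.89 and 0.74 higher (log2) in lumbar libraries as a mean of log values. As summed levels, which the most abundant markers set, the medians were 2.86 in lumbar and 2.003 in sacral libraries for macrophages, 7.41 and 7.38 for endothelial and mural cells, and 6.67 and 6.92 for fibroblasts. Rgs5, a mural cell gene, was called higher in sacral libraries at -0.37, and the fibroblast gene Dcn measured -0.35 (limma adjusted p = 0.13). Markers of large myelinated neurons, a different sensory population, averaged 0.63 higher in lumbar libraries as a mean of log values, and higher in 9 of 10 donors. Their summed level had a median of 2.69 in lumbar and 2.71 in sacral libraries. Of these 4 markers, Pvalb was called at 2.11 (limma adjusted p = 0.0070, 18 libraries with a value). Ntrk3, at -0.27, and Calb1, at 0.13, were not called (limma adjusted p = 0.097 and 0.67). Ntrk3 was higher in sacral libraries in 7 of 10 donors, and Runx3, which was not tested, was higher in lumbar libraries in 8 of 10. In bulk libraries such as these, fewer cells of a type and less RNA per cell cannot be told apart.

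The glucocorticoid receptor was the most abundant of the 8 genes at both levels. Nr3c1 averaged 2.79 ± 0.19 log2 RPKM over the 20 libraries (SD), close to 6.90 RPKM, with 1638 to 3933 reads in each library. Nr3c2 followed at 0.90 ± 0.17, Esr1 at 0.41 ± 1.44, Esrra at -0.72 ± 0.40, Pgr at -0.93 ± 1.27 and Esr2 at -2.40 ± 1.31. Esrrg averaged -1.68 ± 1.25 over the 19 libraries that listed a value, and Esrrb -4.81 ± 1.16 over 17. Among the 6 members with a value in every library, neighbours in this order were compared within donors by an exact sign-flip permutation test (two-sided, 10 donors), for which the smallest p possible is 0.00195. Each of Nr3c1 over Nr3c2, Nr3c2 over Esr1, Esr1 over Esrra and Pgr over Esr2 held in 10 of 10 donors, with an exact permutation p of 0.00195 (adjusted p = 0.0024 over the 5 pairs). Esrra and Pgr did not differ beyond their spread, with a mean difference of 0.21 ± 0.79 (SD, 10 donors; exact permutation p = 0.41). With 1 RPKM added before the log, Nr3c2 was above Esr1 in 7 of 10 donors and did not pass (exact permutation p = 0.043, adjusted p = 0.054), and Pgr and Esrra, 0.02 apart, changed places.

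The order of the receptors was not the same at the 2 levels. In sacral libraries Esr1 stood second, at 1.77 ± 0.40, above Nr3c2 at 0.88 ± 0.17 in all 10 donors, and all 5 neighbouring pairs differed by the exact permutation test (adjusted p from 0.0033 to 0.0039, 10 donors). In lumbar libraries Esr1, at -0.95 ± 0.33, stood below Nr3c1, Nr3c2 and Esrra, the last of them at -0.57 ± 0.48. Esrra and Esr1 there did not pass the test after adjustment (exact permutation p = 0.047, adjusted p = 0.059, 8 of 10 donors), and neither did Pgr and Esr2 (exact permutation p = 0.076, 7 of 10 donors). The lowest genes were near the detection limit. Esr2 had 3 to 118 reads in a library. Esrrb had no read in 3 libraries and at most 31 in the others, and Esrrg had none in the sacral library of male replicate 2.

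**Figure D1:**
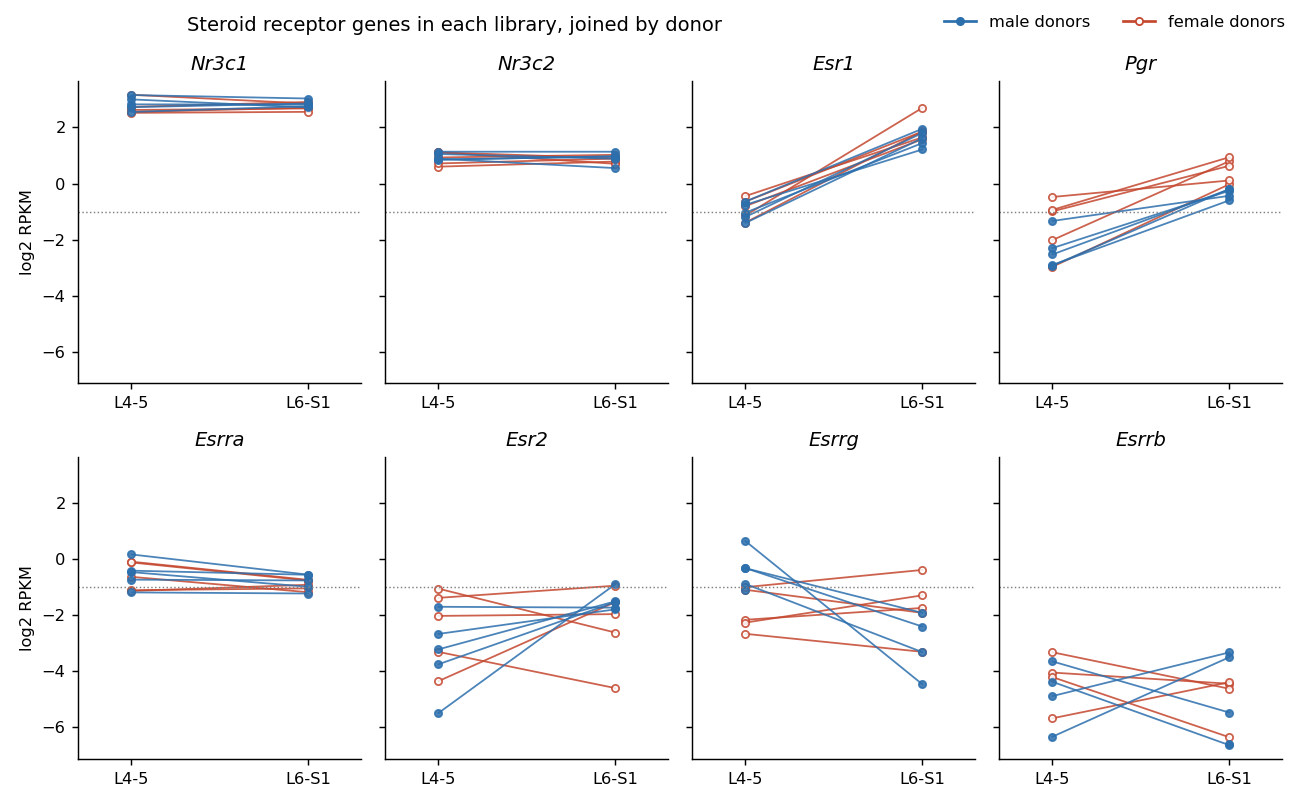
Log2 RPKM of each receptor gene (vertical axis) in the L4-5 and L6-S1 library of each donor, joined by a line; filled blue points are male donors, open red points female donors, and the dotted line is the filter at -1. Libraries without a read of the gene have no point. Esr1 and Pgr rose from lumbar to sacral in 10 of 10 donors, whereas Nr3c1 stayed between 2.52 and 3.17 in all 20 libraries.

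Between the levels, 3 of the 6 members tested changed, Esr1 and Pgr being higher in sacral and Esrrg higher in lumbar libraries. That share of 50% stood beside 45.7% of all 16304 genes tested, of which 30.4% were higher in sacral and 15.3% higher in lumbar libraries, so the number of members called was close to the background. The changes of Esr1 and Pgr were among the largest toward sacral libraries. Only 0.0981% of genes had a log2 fold change at or below that of Esr1, which ranked 16 from the sacral end. For Pgr, which ranked 37, this share was 0.227%. From the same end, Nr3c1 ranked 9727, Nr3c2 10320 and Esrra 12700 of 16304. Esrrg ranked 608 from the lumbar end, and the median of the 6 members tested was 0.02. The median over all genes tested was -0.11. The split between directions depends on the scaling between libraries. It was 4950 genes higher in sacral and 2499 higher in lumbar libraries on the deposited values, 3432 and 3066 under quantile normalization, 3454 and 3411 under voom with TMM scaling, 9373 and 1376 under scaling to total reads, and 554 and 9124 under scaling to the neuron markers. Fold changes are log2 values of lumbar minus sacral, so a negative value is a higher level in sacral libraries. Tests are limma's moderated test with donor as a block and Benjamini-Hochberg adjustment over all genes tested. Pgr passed the filter on low values through the 2 sacral groups alone, and Esrrg through the male lumbar group alone. Esr1 passed it through all groups but male lumbar. The ranks and shares of Pgr and Esrrg are thus of genes admitted through groups where they were high. They give no independent support for a change. Esr2 and Esrrb were under the filter in every group.

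Esr1, the estrogen receptor alpha gene, gave the clearest separation. In male lumbar libraries it measured -1.41, -1.19, -1.04, -0.76 and -0.64 log2 RPKM for donors 1 to 5, and in the sacral libraries of the same males 1.62, 1.80, 1.44, 1.22 and 1.95. In female lumbar libraries it measured -1.14, -1.39, -0.81, -0.45 and -0.64, and in their sacral libraries 2.70, 1.86, 1.58, 1.65 and 1.85. Every sacral library was above every lumbar library, in both sexes, with a gap from -0.45 to 1.22 between the groups. In reads, the lumbar libraries held 237 to 506 and the sacral libraries 1844 to 5104. Among 15318 genes with a value in every library, 1.34% had each lumbar library below each sacral one. The log2 fold change was -2.71 (SE 0.16, adjusted p = 5.9e-10), a level 6.56-fold higher in sacral libraries (95% confidence interval 5.21 to 8.25). Over the 25 alternative settings it ran from -3.05 to -1.54. The donors' own differences ran from -3.84 to -1.97, and all 10 were of the same sign (exact sign-flip permutation p = 0.00195).

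Pgr, the progesterone receptor gene, was lower in level but moved the same way. Male lumbar libraries measured -2.30, -2.93, -1.33, -2.53 and -2.90 log2 RPKM, and their sacral libraries -0.26, -0.19, -0.44, -0.21 and -0.60. Female lumbar libraries measured -2.02, -2.97, -0.48, -0.99 and -0.94, and their sacral libraries 0.80, -0.02, 0.11, 0.63 and 0.94. All 10 donors were higher in their sacral library, as were 14.6% of the genes with a value in every library, but the levels overlapped narrowly, since the highest lumbar value was -0.48 and the lowest sacral value -0.60. The donors' differences ran from -2.95 to -0.59, the smallest being that of female replicate 3, whose lumbar library held the most Pgr reads of the lumbar group (162, against 24 to 144 in the others). The log2 fold change was -2.02 (SE 0.27, adjusted p = 1.1e-05), or 4.04-fold (95% confidence interval 2.74 to 5.98). Over the 25 alternative settings it ran from -2.33 to -0.68 and was called under 24.

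The glial and neuronal marker levels moved with these results. With the mean of the glial markers as a covariate, Esr1 stayed called at -2.55 (limma adjusted p = 0.0014) and Pgr, at -2.06, no longer passed, with an SE of 0.55 in place of 0.27 (limma adjusted p = 0.12). In that fit 84 of 16304 genes were called in all. Scaling each library to the mean of the 7 neuron markers gave -2.21 for Esr1 (limma adjusted p = 5.5e-07) and -1.51 for Pgr (limma adjusted p = 2.8e-04).

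Esrrg, the estrogen-related receptor gamma gene, was the member called higher in lumbar libraries. Male lumbar libraries measured -0.88, -1.09, 0.65, -0.32 and -0.32 log2 RPKM, and male sacral libraries -3.31, no value, -4.46, -2.40 and -1.91. Female lumbar libraries measured -2.16, -2.66, -1.09, -2.26 and -0.996, and female sacral libraries -1.74, -3.30, -1.91, -1.29 and -0.38. All 5 males were higher in lumbar, and 2 of the 5 females. The log2 fold change over both sexes was 1.28 (SE 0.39, adjusted p = 0.012), in a fit that dropped the 1 sacral library without a value, and 3.73% of genes had one at or above it. Without male replicate 3 it was 0.90 (limma adjusted p = 0.067), and in females alone -0.11 (limma adjusted p = 0.90) against 2.66 in males alone (limma adjusted p = 0.0063). With the glial covariate it was 1.59 (limma adjusted p = 0.56).

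**Figure D2:**
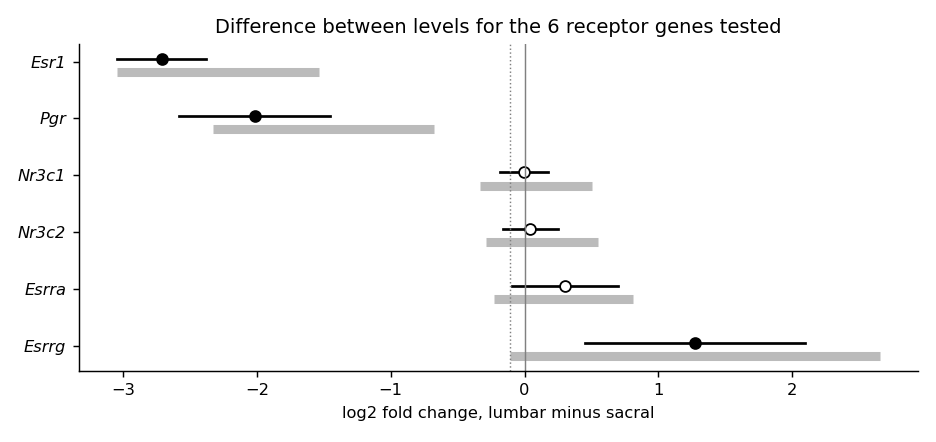
Log2 fold change, lumbar minus sacral (horizontal axis), of the 6 receptor genes tested: points are estimates from limma, filled at an adjusted p of at most 0.05, black lines are 95% confidence intervals, grey bars span the values under all alternative settings, and the dotted line is the median of all genes at -0.11. The bars of Esr1 and Pgr stay below 0, while those of the other 4 genes reach both sides of it.

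The corticosteroid receptors showed the narrowest intervals. Nr3c1 (chr18:39570199-39650955) ranged from 2.52 to 3.17 log2 RPKM in lumbar and from 2.56 to 3.03 in sacral libraries. Its log2 fold change was -0.0028 (95% confidence interval -0.18 to 0.17, limma adjusted p = 0.98). Nr3c2 (chr8:79423341-79768911) ranged from 0.60 to 1.14 and from 0.55 to 1.13, with a log2 fold change of 0.04 (95% confidence interval -0.16 to 0.25, limma adjusted p = 0.74). The ranges of the 2 levels overlapped almost entirely for both genes, and the intervals leave out a change of the size of Esr1 or Pgr in either direction. These values depend on the scaling between libraries. Under scaling to total reads, which moved the median of all genes to -0.43, Nr3c1 was -0.33 and Nr3c2 -0.29 (limma adjusted p = 0.0036 and 0.0088). Under scaling to the neuron markers, which moved the median to 0.40, they were 0.50 and 0.55 (limma adjusted p = 9.9e-04 and 0.0033). Esr1 and Pgr kept their direction under both.

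Esrra, the estrogen-related receptor alpha gene, ranged from -1.18 to 0.17 in lumbar and from -1.22 to -0.55 in sacral libraries and was higher in lumbar in 8 of 10 donors. The mean difference within donors was 0.30 ± 0.35 (SD, 10 donors, exact sign-flip permutation p = 0.039), whereas limma gave a log2 fold change of 0.30 (95% confidence interval -0.10 to 0.70, adjusted p = 0.20). This too depends on the scaling, since Esrra was 0.81 and called under scaling to the neuron markers (limma adjusted p = 0.0063), -0.031 under scaling to total reads and -0.23 with the glial covariate. Esr2, the estrogen receptor beta gene, ranged from -5.49 to -1.05 in lumbar and from -4.60 to -0.89 in sacral libraries. Its difference within donors was -0.98 ± 1.90 (SD), with 7 of 10 donors higher in sacral (exact sign-flip permutation p = 0.14). Its reads, 3 to 118 in a library, differed in both directions within donors, from 3 in lumbar and 105 in sacral in male replicate 2 to 77 and 35 in female replicate 3. Esrrb, the estrogen-related receptor beta gene, differed by 0.27 ± 1.72 with its empty libraries set to the floor of 3 reads (exact permutation p = 0.62, 10 donors). Female replicate 3, counted among these donors, had no Esrrb read in either library. Its difference of 0.43 is between floor values alone and says nothing about the gene.

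None of the 6 members tested was called between the sexes at either level. Of all genes tested, 0.0427% of 16386 in lumbar and 0.0368% of 16321 in sacral libraries were called (7 and 6 genes). Esr2 and Esrrb were under the filter and were not tested by limma. Among members, Esrrg had the lowest limma adjusted p in sacral libraries, at 0.61. For Pgr the 5 female sacral libraries, from -0.02 to 0.94 log2 RPKM, all lay above the 5 male ones, from -0.60 to -0.19, as they did for 0.849% of genes with a value in every library. The mean difference was 0.83, and the exact permutation test gave p = 0.0079, the smallest it allows with 5 against 5. Limma, which takes the spread from all groups, gave an adjusted p of 0.63 (unadjusted p = 0.063). In lumbar libraries Pgr averaged 0.92 higher in females, with overlap between the sexes (exact permutation p = 0.13; limma adjusted p = 0.42). Averaged over the 2 levels of each donor, female donors were 0.88 higher, also with overlap (exact permutation p = 0.032). In all, 32 such exact tests were made over the 8 members, and these p-values are unadjusted.

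Esr1 showed no such separation. Female libraries averaged 0.12 higher in lumbar (95% confidence interval -0.40 to 0.64) and 0.32 higher in sacral ganglia (95% confidence interval -0.20 to 0.84, limma adjusted p = 0.75). The female sacral mean includes female replicate 1, whose value of 2.70 was far above the other 4 females (1.58 to 1.86). With each donor left out in turn, the difference between the sexes ran from 0.13 to 0.41 in sacral libraries. In lumbar libraries it ran from 0.012 to 0.25, and it was called in neither. The level difference of Esr1 was -2.61 in males and -2.81 in females, and the difference of these was -0.20 (95% confidence interval -0.86 to 0.47). For Pgr the corresponding values were -2.06, -1.97 and 0.09 (95% confidence interval -1.04 to 1.22).

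Esrrg was the member whose level difference was furthest apart between the sexes. The lumbar minus sacral difference was 2.43, at least 5.81, 5.11, 2.09 and 1.59 in male donors 1 to 5, where the bound sets the empty sacral library to 3 reads. In female donors it was -0.42, 0.64, 0.82, -0.97 and -0.61. Every male donor was above every female donor (exact permutation p = 0.0079, the smallest possible with 5 against 5). This held for 0.313% of the genes with a value in every library. Esrrg, with a value in 19 libraries, is not among those genes, so the share is not a matched background. It passed the filter through the male lumbar group alone, where it was high. The difference between the means of the sexes was of opposite sign at the 2 levels, and limma called it at neither. Female libraries were 1.44 lower in lumbar (exact permutation p = 0.024) and, with the bound, at least 2.07 higher in sacral ganglia (exact permutation p = 0.048). Limma, which left the empty library out, gave -1.44 (adjusted p = 0.38) and 1.33 (adjusted p = 0.61). The interaction term of limma was -2.77 (SE 0.79, unadjusted p = 0.0022, adjusted p = 0.86). No gene of 16304 passed this interaction test after adjustment, and 672 had an unadjusted p under 0.05. Read numbers of Esrrg were 116 to 426 in male lumbar, 0 to 81 in male sacral, 47 to 180 in female lumbar and 37 to 321 in female sacral libraries.

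**Figure D3:**
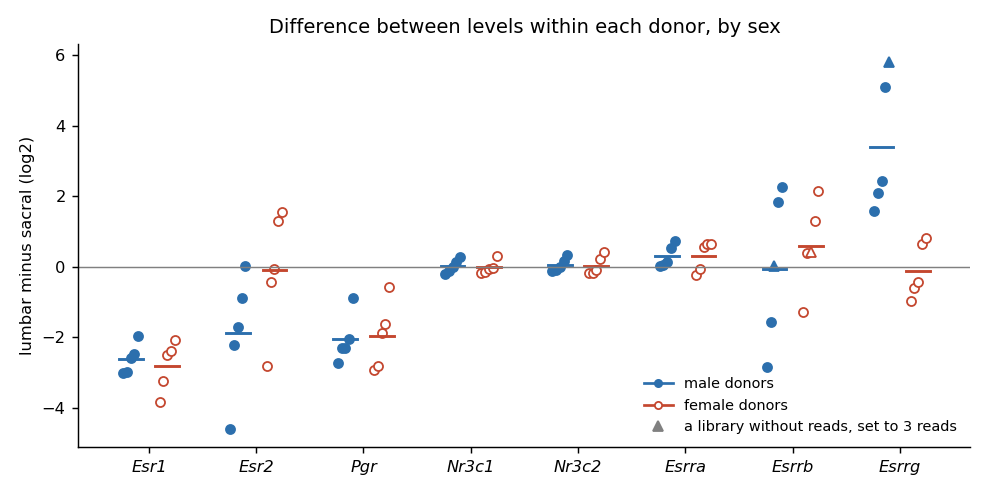
Lumbar minus sacral difference in log2 RPKM (vertical axis) for each donor and receptor gene; filled blue points are males, open red points females, short lines their means, and triangles differences in which a library without reads was set to 3 reads. All points of Esr1 and Pgr lie below 0, and the Esrrg points of males (1.59 and above) lie above those of females (0.82 and below).

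Within a level, no pair of the 6 members with complete values was correlated across libraries after adjustment (30 pairs, 10 libraries each, lowest adjusted permutation p = 0.65). Esr1 and Pgr had r = 0.50 in lumbar libraries (Spearman's rho 0.44, permutation p = 0.14 and 0.20) and r = 0.47 in sacral libraries (rho 0.31, permutation p = 0.17 and 0.39). Without the 2 libraries farthest from the median of Esr1, r was 0.40 and 0.08, respectively. Over all 20 libraries, where the points share the split between levels, the genes most like Esr1 were Negr1, a neuronal cell adhesion gene (r = 0.955), 6330403K07Rik (r = 0.934) and the homeobox gene Hoxd9 (r = 0.929). Those most like Pgr were the homeobox genes Hoxc10 (r = 0.922) and Cux2 (r = 0.888) and again Negr1 (r = 0.887). These correlations describe the likeness of patterns over 20 libraries and carry no test.

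The pathway was taken from 8 lists, in which 105 genes were tested and 55 called, beside 45.7% of all genes tested. Pgr, a member, is also in the estrogen-responsive list, and without it 104 genes were tested and 54 called. The list counts below are on the deposited values, where 30.4% of all genes were higher in sacral and 15.3% higher in lumbar libraries, and they move with the scaling. Of the 34 pathway genes called higher in sacral libraries, 31 were so called under voom with TMM scaling, 25 under quantile normalization and 34 under scaling to total reads, but 6 under scaling to the neuron markers, where 22 changed sign and 5 of these were called higher in lumbar libraries. Of the 21 called higher in lumbar libraries, 20, 21, 9 and 21 were so called under the same settings in that order. With the glial covariate 1 of the 34 and 0 of the 21 were so called, and 3 and 6 changed sign. Among 40 other nuclear receptor genes, 25 were tested, of which 3 were higher in sacral and 8 higher in lumbar libraries. Their median log2 fold change was 0.16, and 11 of 25 is close to the background of 45.7%. Under scaling to total reads 10 were higher in sacral and 3 in lumbar libraries. The largest shifts toward lumbar were of Nr5a2 at 1.85 (SE 0.47), Nr2f1 at 0.96 (SE 0.28) and Nr2f2 at 0.90 (SE 0.13), with limma adjusted p from 2.3e-05 to 0.0078. Nr2f1 and Nr2f2 encode the COUP transcription factors, and Nr5a2 encodes a receptor known for regulating steroid synthesis genes. Of the 31 nuclear receptor genes tested, members included, Esr1 and Pgr had the largest shifts toward sacral libraries. In level averaged over all 20 libraries, Nr3c1 ranked 6 of the 35 nuclear receptor genes with a value in every library.

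Progesterone and estrogen also act through membrane proteins. All 8 genes of this list were tested, with 4 higher in sacral and 1 higher in lumbar libraries and a median of -0.32 (1 and 3, with a median of 0.18, under scaling to the neuron markers). The adiponectin receptor family genes Paqr9, Paqr5 and Paqr7, which encode membrane progestin receptors, had log2 fold changes of -0.90 (SE 0.14), -0.51 (SE 0.13) and -0.49 (SE 0.09). Another of that family, Paqr6, went the other way at 1.27 (SE 0.18, limma adjusted p = 1.6e-05) and was higher in the lumbar library of all 10 donors. The membrane receptors were therefore not uniform in direction.

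Hsp90 and its partners, which keep steroid receptors ready to bind hormone, were higher in sacral libraries in 11 of 12 genes, with none called higher in lumbar and a median of -0.42, beside 30.4% and -0.11 for all genes tested. Under scaling to the neuron markers this direction was lost, with 1 of the 12 called higher in sacral, 3 higher in lumbar libraries and a median of 0.09. Fkbp5, a co-chaperone that lowers the hormone affinity of the glucocorticoid receptor, had the largest change at -0.88 (SE 0.13, limma adjusted p = 2.8e-05), followed by the Hsp90 genes Hsp90ab1 at -0.57 and Hsp90aa1 at -0.55 and by Fkbp4 at -0.51. Each of these was smaller than the change of Esr1 or Pgr. The neuron marker mean itself differed by -0.51, and a link to the chaperones was not tested. Of 17 coregulators, 6 were higher in sacral and 2 in lumbar libraries, with a median of -0.10 (0 and 10, with a median of 0.41, under scaling to the neuron markers). Ncoa1, a coactivator of steroid receptors, measured -0.69 (SE 0.11), whereas the acetyltransferase gene Kat2b measured 0.51 (SE 0.11).

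Of 31 genes of steroid synthesis, breakdown and transport, 29 were in the table and 14 were tested. In this list 6 were called higher in lumbar and 1 higher in sacral libraries, beside 15.3% and 30.4% of all genes, and the median was 0.15 (3 and 7, with a median of -0.18, under scaling to total reads). The glial markers, at a median of 0.93, were higher in lumbar libraries too, and a link between these lists was not tested. Akr1c14, which encodes a 3-alpha-hydroxysteroid dehydrogenase, measured 1.37 (SE 0.32), Cyp7b1, which encodes an oxysterol hydroxylase, 1.15 (SE 0.23), and Hsd17b11 0.68 (SE 0.11). The single gene higher in sacral libraries was Srd5a2, which encodes a steroid 5-alpha-reductase, at -3.73 (SE 0.58, limma adjusted p = 5.3e-05, 19 libraries with a value). It averaged -1.01 ± 2.15 in lumbar and 2.80 ± 1.55 in sacral libraries (log2 RPKM, SD), and 8 of the 9 donors with both values were higher in sacral libraries.

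Genes known to respond to the receptors were split in direction. Of 12 glucocorticoid-responsive genes tested, Fkbp5 and Klf9 were higher in sacral and Mt1 higher in lumbar libraries, and 9 were not called (1 higher in sacral and 8 in lumbar libraries under scaling to the neuron markers). Klf9 measured -0.47 (SE 0.09) and Mt1, a metallothionein gene, 0.39 (SE 0.13). Of 9 estrogen-responsive genes tested, 4 were higher in sacral libraries, Pgr itself among them, and 3 higher in lumbar libraries (1 and 5 under scaling to the neuron markers). The cyclin gene Ccnd1 measured 1.32 (SE 0.15) and Igfbp4, an insulin-like growth factor binding protein gene, 1.20 (SE 0.14), while Ctsd, which encodes cathepsin D, measured -0.41 (SE 0.09). Of 12 targets of estrogen-related receptors, 5 were higher in sacral and 2 in lumbar libraries (1 and 8 under scaling to the neuron markers). Mfn2, a mitochondrial fusion gene, measured -0.69 (SE 0.09) and Sdha, a subunit of succinate dehydrogenase, -0.45 (SE 0.07), whereas Pdk4, a kinase that restrains pyruvate use, measured 0.91 (SE 0.13). On the deposited values none of the 104 pathway genes other than Pgr was called between the sexes, with a lowest limma adjusted p of 0.20 in lumbar and 0.22 in sacral libraries.

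In sacral libraries the sexes did not overlap for 2 of these 104 genes. Paqr9 lay between 4.13 and 4.70 log2 RPKM in females and between 2.55 and 3.997 in males, an order that 0.849% of genes with a value in every library shared. Its difference was 0.93 (limma adjusted p = 0.22), and under voom with TMM scaling 0.94 and called (limma adjusted p = 0.036). Srd5a2 went the other way, between -0.27 and 3.17 in females and between 3.69 and 4.49 in males, as did 0.699% of genes. It was -2.43 in females relative to males (limma adjusted p = 0.52), and was called under voom with TMM scaling (adjusted p = 0.040), under scaling to total reads (adjusted p = 0.049) and with a pseudocount of 1 RPKM (adjusted p = 0.025). In lumbar libraries the sexes did not overlap for 1 of 103 genes, Nr1d2, a circadian nuclear receptor gene named here after its values were seen. It lay between 1.33 and 1.65 in females and between 1.86 and 2.69 in males, as did 0.731% of genes (limma adjusted p = 0.20).

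**Figure D4:**
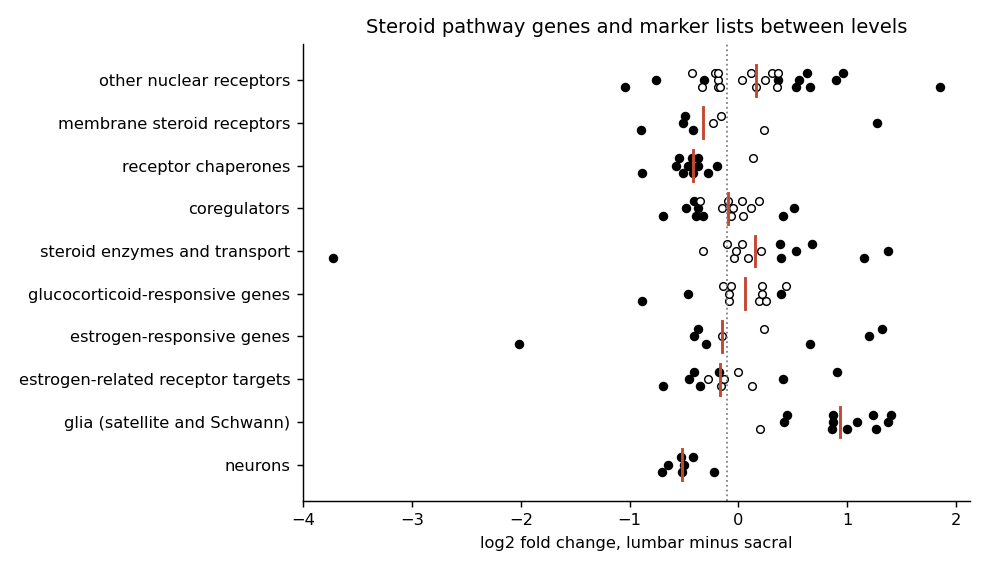
Log2 fold change, lumbar minus sacral (horizontal axis), of each gene tested in the 8 pathway lists and in the glial and neuron marker lists; filled points passed an adjusted p of 0.05, red bars are list medians, and the dotted line is the median of all genes at -0.11. The chaperone list sits at a median of -0.42, the glial markers at 0.93 and the neuron markers at -0.52.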

How the data were processed

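RNA was amplified with the Ovation RNA-Seq System v2 and made into Nextera XT libraries. According to the methods and the submitters' processing notes, the authors aligned reads to mm9 with Subread, kept uniquely mapping reads, counted Ensembl genes with featureCounts, scaled them with voom (limma 3.26.9) and TMM (edgeR 3.12.1), and deposited log2 RPKM values. Cells without reads are empty. The medians of all libraries are equal, by a step the sources do not describe. With exon lengths from the annotation, 98.1% of 430293 tested values came back as whole reads within 0.01 read, and these reads are quoted as depth. Precision is limited by these read numbers and by 5 donors of each sex.

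Here limma 3.58.1 (R 4.3.3) was fitted to the deposited log2 values with 1 mean for each of 4 groups, donor as a random block (consensus correlation 0.17) and trended moderation. Genes needed a mean above -1 in at least 1 group with at least 3 values, and calls an adjusted p of at most 0.05. The donors come from animal numbers shared in the titles; deviations of same-donor libraries correlated at 0.18 on average (0.039 to 0.30), against -0.04 between donors. Empty values were set to 3 reads for donor differences only. Alternatives covered filters, pseudocounts, scaling, donor model, moderation, glial covariate, each sex alone and each donor left out. The fit was tested on simulated data. The members and lists were chosen with earlier results of these data known. Named genes were all members, up to 4 called genes with the largest change of each list, the 3 genes most like Esr1 and Pgr, and cell type markers as checks, whether called or not. A few genes the rule would name are left out here.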

Additional observations from a re-analysis of the deposited data

Results flagged for a closer look

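In the female sacral group, the Esr1 value of female replicate 1 was 2.70 log2 RPKM and stood apart from the other 4 libraries, which lay between 1.58 and 1.86. In the same group, the Esrrb value of female replicate 5 was -6.35, a level of 5 reads, against -4.62 to -4.39 in the other 3 libraries with a value. Of 32 groups of a gene examined for such a library, 2 had one, and chance gives about 1 in 20 groups.

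The lumbar minus sacral difference of Esrrg was apart between the sexes, at -0.11 on average in female donors and 3.404 in male donors with the bound, so females were lower by 3.51 (exact permutation p = 0.0079). The adjusted limma interaction did not pass (adjusted p = 0.86).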

How the results depend on the processing

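Esr1 was called in the same direction under all 25 alternatives (-3.05 to -1.54), Pgr under 24 of 25 (-2.33 to -0.68) and Esrrg under 21 of 24. With the filter at 0, Esrrg was not tested. With the glial covariate, Pgr was -2.06 (limma adjusted p = 0.12), Esrrg 1.59 (adjusted p = 0.56), Nr3c2 -0.20 and Esrra -0.23, with 1 member and 2 pathway genes called, where 84 of 16304 genes were called in all; the cause was not tested. Nr3c1 was 0.16 under quantile normalization, 0.11 under voom with TMM scaling and 0.016 in males alone. Scaling to total reads, scaling to the neuron markers and empty cells filled in below 1 read were added after the data were seen. Scaling to total reads gave -0.33 for Nr3c1, -0.29 for Nr3c2 and -0.031 for Esrra, with 5 members and 74 pathway genes called. Scaling to the neuron markers gave 0.50, 0.55 and 0.81, with 6 members and 73 pathway genes called. Esrrg was -0.11 in females alone and Esrrb -0.057 in males alone; pathway calls numbered 36 in males and 29 in females alone. Between the sexes, Esr1 in lumbar libraries was -0.12 under neuron scaling, and the Pgr interaction was -0.21 and -0.070 with pseudocounts of 1 and 0.1 RPKM and -0.091 under neuron scaling. Genes called between the sexes, 7 in lumbar and 6 in sacral libraries, numbered 8 and 35 under voom with TMM scaling, 12 and 27 with a pseudocount of 1 RPKM, and 3 to 8 and 3 to 9 with each donor left out; no member was among them. Leaving out each donor gave 2 to 3 members called, 0.90 to 1.46 for Esrrg (0.90 without male replicate 3), -0.045 to 0.025 for Nr3c1, -0.0027 to 0.071 for Nr3c2, -0.38 to 0.057 for the Esr1 interaction and -0.25 to 0.38 for the Pgr interaction. Without the replicate block (no donor pairing), 6591 genes were called, and with donor as a fixed block 7167, against 7449; neither changed the call of a member. With the block fixed, Esr1 was -2.71 (adjusted p = 8.6e-07), Pgr -2.02 (9.1e-05) and Esrrg 1.35 (0.021). The planned edgeR test was not run, because the deposited values are log2 RPKM and not counts. The voom fits, with TMM scaling and with scaling to total reads, used the reads recovered from these values. Counting precision was lowest where libraries held the fewest reads, for Esrrb (0 to 31), Esrrg (0 to 426) and Esr2 (3 to 118).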
